A study of Mus musculus with 10 samples.

Results

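The Notch receptor and ligand genes were followed through 10 RNA libraries of mouse mammary epithelial cells (MECs) and mammary macrophages. The 9 genes, of the 55487 in the count tables, were taken by name: the receptors *Notch1*, *Notch2*, *Notch3* and *Notch4*, the ligands *Jag1*, *Jag2*, *Dll1* and *Dll4*, and *Dner*, a transmembrane protein described as a noncanonical Notch ligand. Notch receptors sit in the membrane of one cell and are bound by Jagged or Delta-like ligands on a neighboring cell. Binding leads to cleavage of the receptor, and the freed intracellular domain enters the nucleus and switches target genes such as those of the *Hes* and *Hey* families through the DNA-binding protein RBPJ. In the mammary gland, the pathway is known for its part in luminal cell fate, and ligand on basal epithelial cells is known to signal to nearby macrophages.

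The mice were 10-wk-old females in diestrus on a BALB/c background, and all of them carried floxed *Cebpb* alleles. WT mice were the Cre-negative littermates, whereas CebpbΔM mice also carried *Csf1r-iCre*, which deletes *Cebpb*, the gene of the transcription factor C/EBPβ, in cells that express the macrophage receptor CSF1R. The sample labels name this genotype a C/EBPb knockdown. MECs were obtained by removing cells with markers of other lineages, and macrophages by selecting cells with the surface protein F4/80, and no sorting by flow cytometry followed either step. The MEC libraries were WT 1 and 3 and CebpbΔM 1 and 3 (n = 2 each), and the macrophage libraries were those labeled WT 4 and 5 (n = 2) and CebpbΔM 4 to 7 (n = 4).

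The total count of a MEC library was 25310926 to 27008166 and that of a macrophage library 16935000 to 20174722, so the smallest level that could be shown, 3 counts in a library, corresponded to 0.111 to 0.177 CPM, the count scaled to the library total. This limit covers counting error only. *Cebpb* had 25 and 28 counts in WT MECs 1 and 3 and 69 and 42 in CebpbΔM MECs 1 and 3. In the macrophage libraries it had 13 and 15 counts in those labeled WT and 16, 13, 5 and 4 in those labeled CebpbΔM 4 to 7. It was below the filter on low counts in macrophages, and its 16 and 13 counts in CebpbΔM 4 and 5 were close to the 13 and 15 in WT, so the macrophage genotypes are given here as labeled. The macrophage libraries also held RNA of other cells. The summed level of 12 macrophage markers was between 8609 and 17015 CPM in them, against 34.2 to 44.9 CPM in MECs, and that of 12 luminal epithelial markers was between 5865 and 11224 CPM, or 17.0% to 32.5% of the mean of WT MECs. The 8 endothelial markers were all above 1 CPM in every library and summed to 1194 to 2542 CPM in macrophage libraries and 106 to 143 CPM in MECs. The 7 mural cell markers, those of pericytes and vascular smooth muscle, summed to 325 to 716 CPM and 37.5 to 64.0 CPM, respectively. The 7 fibroblast markers summed to 3286 to 7668 CPM in macrophage libraries, lowest in CebpbΔM 6, and to 5293 to 6461 CPM in MECs. In these bulk libraries, more cells of a type cannot be told apart from more RNA per cell.

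The receptor genes lie on 3 chromosomes of the GRCm38 build. *Notch1* (ENSMUSG00000026923) is on chromosome 2 from 26457903 to 26516663, *Notch2* (ENSMUSG00000027878) on chromosome 3 from 98013527 to 98150361, *Notch3* (ENSMUSG00000038146) on chromosome 17 from 32120820 to 32166852, and *Notch4* (ENSMUSG00000015468) on chromosome 17 from 34564268 to 34588503. Of the ligands, *Jag1* (ENSMUSG00000027276) is on chromosome 2 from 137081456 to 137116644, *Jag2* (ENSMUSG00000002799) on chromosome 12 from 112907819 to 112929776, *Dll1* (ENSMUSG00000014773) on chromosome 17 from 15367354 to 15376872, and *Dll4* (ENSMUSG00000027314) on chromosome 2 from 119325784 to 119335962. *Dner* (ENSMUSG00000036766) is on chromosome 1 from 84369839 to 84696221. The values below are counts over the exons of each gene. On the same strand, *Gm42820* shared 541 nt of exon with *Notch2* and had at most 150 counts in a library. How reads of this stretch were assigned was not checked. Genes on the opposite strand covered 7.5% and 2.91% of the *Notch1* exon length, 6.03% of that of *Notch3* and 5.56% of that of *Dll4*, and the counts of such overlapping genes in these tables do not separate the strands.

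All 9 genes had an entry in the RefSeq promoter table (GRCm38.p6), which was read here for the 250 bases before each start site. The windows were searched on both strands for the C/EBP motif TTGCNNAA, the RBPJ motif TGGGAA, the GC box GGGCGG and the CCAAT box CCAAT. None of the 9 genes held the C/EBP or the RBPJ motif, which were present in 9.57% and 21.6% of the 32526 distinct mouse promoter windows of this length. These letters may lie outside the windows. The GC box was found for 5 of the 9 genes, against 33.0% of all windows, and the CCAAT box for 2, against 33.8%. The GC content was between 56.0% and 87.2%, against a median of 52.4% over all windows. The windows of *Dll4*, which had the smallest *P* between the cell types in WT, and of *Notch2*, *Jag1* and *Dner*, which had the smallest *P* between macrophage genotypes, are printed 5′ to 3′ on the strand of the gene, without bases that the count tables place in an exon. Capitals mark GC and CCAAT boxes, no 2 of which overlap.
*Dll4*, chr2:119325534-119325783, plus strand: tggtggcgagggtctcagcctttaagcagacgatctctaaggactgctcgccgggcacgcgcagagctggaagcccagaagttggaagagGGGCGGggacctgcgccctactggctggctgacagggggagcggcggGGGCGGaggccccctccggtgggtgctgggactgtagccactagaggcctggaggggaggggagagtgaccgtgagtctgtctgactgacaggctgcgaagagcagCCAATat
*Notch2*, chr3:98013288-98013526, plus strand: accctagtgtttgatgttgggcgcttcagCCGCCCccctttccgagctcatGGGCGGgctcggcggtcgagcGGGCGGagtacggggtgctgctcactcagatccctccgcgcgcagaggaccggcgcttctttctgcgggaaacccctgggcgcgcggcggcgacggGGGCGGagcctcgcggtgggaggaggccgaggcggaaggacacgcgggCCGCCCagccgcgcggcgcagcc
*Jag1*, chr2:137116645-137116770, minus strand: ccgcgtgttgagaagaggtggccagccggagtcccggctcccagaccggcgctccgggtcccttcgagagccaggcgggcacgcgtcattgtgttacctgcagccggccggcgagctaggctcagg
*Dner*, chr1:84696222-84696471, minus strand: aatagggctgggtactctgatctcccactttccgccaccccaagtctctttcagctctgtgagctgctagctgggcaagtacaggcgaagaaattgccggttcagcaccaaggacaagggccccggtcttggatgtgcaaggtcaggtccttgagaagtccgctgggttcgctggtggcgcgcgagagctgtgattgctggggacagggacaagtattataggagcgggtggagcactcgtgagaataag
*Notch2* held 5 GC boxes and *Dll4* held 2 of them with 1 CCAAT box, whereas *Jag1* and *Dner* held neither.

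To ask which receptors were present in each cell type, levels were expressed as CPM after scaling with the trimmed mean of M-values (TMM) method of edgeR across the 10 libraries. For comparisons between genes, this level was divided by exon length, giving CPM per kb. The 3 receptors *Notch1*, *Notch2* and *Notch3* were present in every library, and *Notch4* was low throughout. In WT MECs the level per length was 8.14 ± 0.809 CPM per kb (SD, n = 2) for *Notch3*, 6.45 ± 0.0347 for *Notch2*, 5.27 ± 0.0390 for *Notch1* and 0.123 ± 0.0395 for *Notch4*. In WT macrophages it was 16.2 ± 4.23 CPM per kb for *Notch3*, 12.6 ± 1.34 for *Notch2*, 7.97 ± 2.80 for *Notch1* and 0.736 ± 0.490 for *Notch4* (SD, n = 2). *Notch3* and *Notch2* overlapped within their SD in WT macrophages. The summed receptor level was between 15.2 and 20.5 CPM per kb in the 4 MEC libraries and between 32.0 and 46.1 CPM per kb in the 6 macrophage libraries.

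*Notch2*, a receptor known for its role in myeloid and marginal zone B cell fate, was even across MECs. Its level was 69.3 and 69.8 CPM in WT MECs 1 and 3 and 69.4 and 70.7 CPM in CebpbΔM MECs 1 and 3. It was 126 and 147 CPM in WT macrophages 4 and 5 and 165, 166, 191 and 211 CPM in CebpbΔM macrophages 4 to 7. Every macrophage library was above every MEC library, and among macrophages every library labeled CebpbΔM was above those labeled WT. *Notch3*, a receptor best known in vascular mural cells and also found in luminal cells, was 70.5 and 61.2 CPM in WT MECs, 44.2 and 65.9 CPM in CebpbΔM MECs, and 107 and 155 CPM in WT macrophages. In CebpbΔM macrophages 4 to 7 it was 86.8, 91.9, 139 and 103 CPM, so 3 of these 4 libraries lay below both WT libraries. *Notch1*, the receptor with the widest known roles, was 75.4 and 74.6 CPM in WT MECs and 45.1 and 73.2 CPM in CebpbΔM MECs. Its macrophage levels of 85.3 and 142 CPM in WT and 87.5 to 141 CPM in CebpbΔM overlapped fully. *Notch4*, a receptor best known in endothelial cells, was between 0.769 and 1.22 CPM in MECs, on 19 to 30 counts, and between 3.14 and 10.9 CPM in macrophage libraries.

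**Figure D1:**
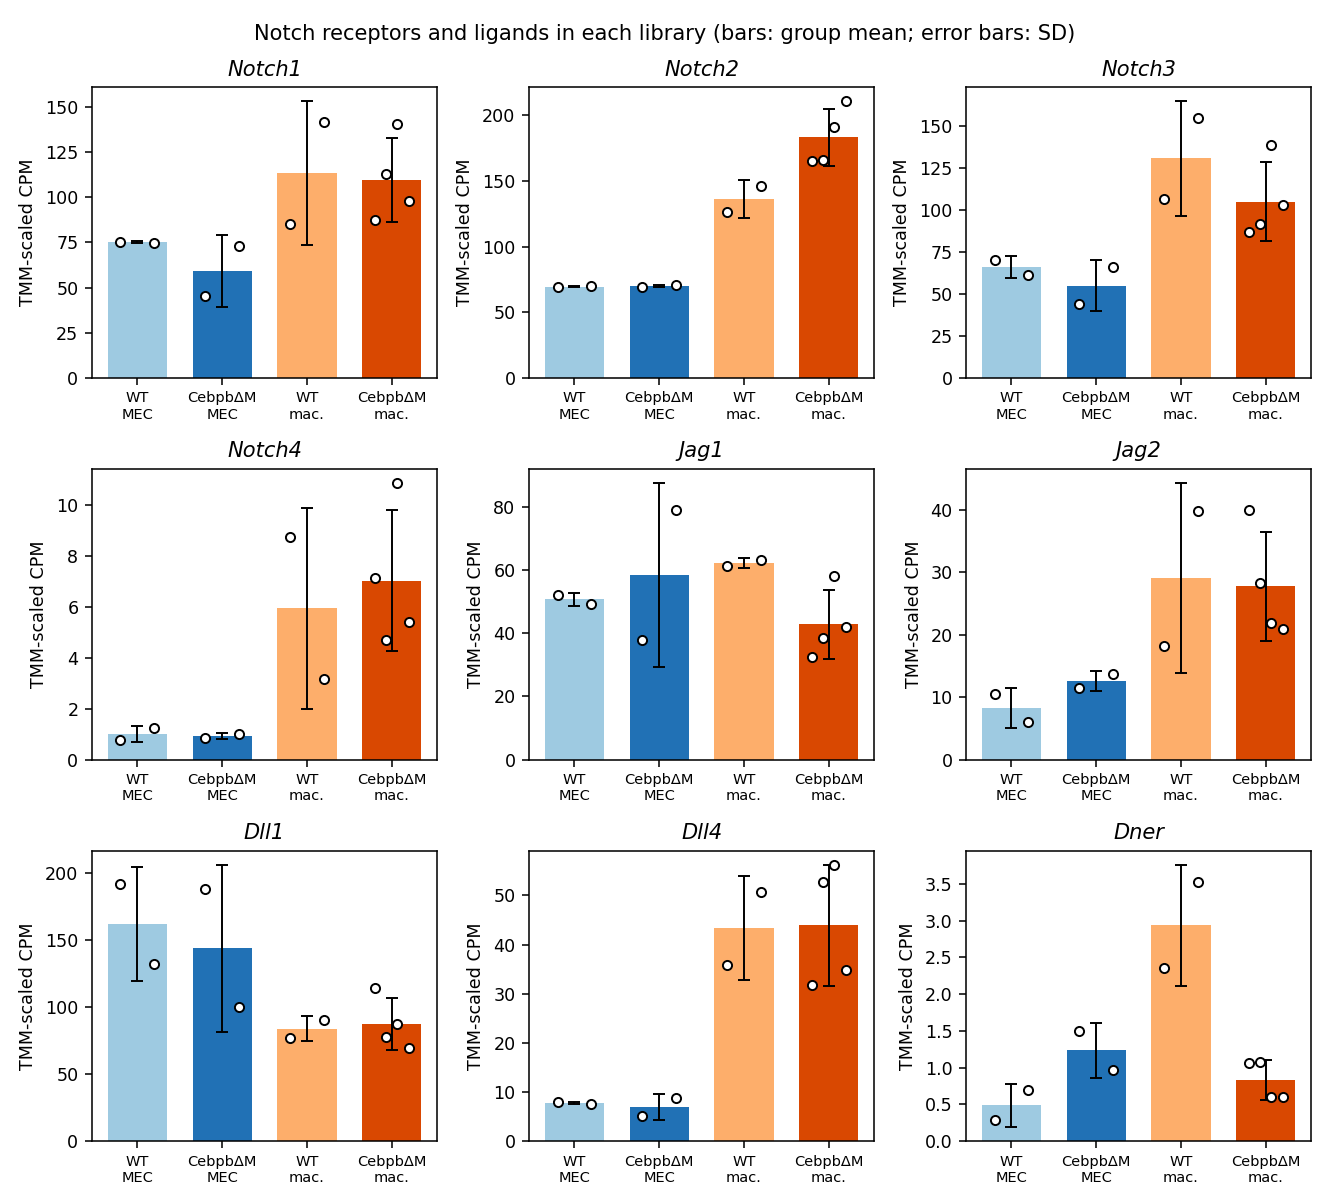
Level of each Notch receptor and ligand gene in TMM-scaled CPM (linear axes from 0, with a scale of its own in each panel), with white points for libraries, bars for group means and error bars for the SD (WT MEC n = 2, CebpbΔM MEC n = 2, WT macrophage n = 2, CebpbΔM macrophage n = 4). *Notch1*, *Notch2*, *Notch3*, *Notch4*, *Jag2* and *Dll4* are higher in every macrophage library than in every MEC library. *Dner* is highest in the WT macrophages, at 2.36 and 3.52 CPM.

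The make-up of the receptors was expressed as shares of their summed level per length. *Notch3* held the largest share in WT macrophages, at 42.9% ± 2.27 (SD, n = 2), followed by *Notch2* at 34.1% ± 3.58. In CebpbΔM macrophages *Notch2* held 44.4% ± 4.57 and *Notch3* 33.4% ± 2.54 (SD, n = 4), and *Notch2* was the larger of the pair in each of these libraries. The read ratio of *Notch2* to *Notch3*, in which gene lengths cancel between groups, was 1.18 and 0.945 in WT macrophages 4 and 5 and 1.90, 1.81, 1.37 and 2.05 in CebpbΔM macrophages 4 to 7. The groups did not overlap. This ratio was chosen after its values were seen and is given without a test. In MECs it was 0.983 and 1.14 in WT and 1.57 and 1.07 in CebpbΔM, which overlapped. The order of shares depends on the length used. With read counts in place of the level per length, *Notch2* (35.7%) was ahead of *Notch3* (33.7%) and *Notch1* (28.9%) in WT macrophages, and *Notch1* (35.5%) was ahead of *Notch2* (32.9%) and *Notch3* (31.1%) in WT MECs. With the longest coding transcript of each gene, *Notch3* kept the largest share in both, at 38.5% and 35.8%.

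Among the ligands, *Dll1* led in MECs and macrophages alike. *Dll1* encodes a Delta-like ligand known in basal mammary cells. Its level was 192 and 132 CPM in WT MECs 1 and 3 and 188 and 99.9 CPM in CebpbΔM MECs 1 and 3, so the libraries numbered 1 were the higher ones in both genotypes. It was 77.3 and 90.5 CPM in WT macrophages and 69.5 to 114 CPM in CebpbΔM macrophages, with CebpbΔM 4 the highest. *Dll1* made up 75.8% ± 3.59 of the ligand level per length in WT MECs and 42.8% ± 2.22 in WT macrophages (SD, n = 2 each). *Dll4*, a ligand best known in endothelial tip cells, went from 4.10% ± 0.761 of the ligand level in WT MECs to 24% ± 2.0 in WT macrophages. The summed ligand level was alike, at 41.7 to 58.2 CPM per kb in MECs and 35.9 to 51.9 CPM per kb in macrophage libraries, so the ligands differed in make-up and overlapped in amount.

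*Jag1*, a Jagged ligand with roles in vessel and bile duct development, was 52.3 and 49.4 CPM in WT MECs and 37.8 and 79.2 CPM in CebpbΔM MECs. In macrophages it was 61.3 and 63.4 CPM in WT 4 and 5 and 32.5, 38.6, 58.1 and 42.2 CPM in CebpbΔM 4 to 7, with no overlap of the genotypes. *Jag2*, the second Jagged ligand, was 10.5 and 5.93 CPM in WT MECs, 11.4 and 13.7 CPM in CebpbΔM MECs, and between 18.3 and 39.9 CPM in macrophage libraries. *Dll4* was between 5.08 and 8.82 CPM in MECs and between 31.7 and 56.2 CPM in macrophage libraries. *Dner* was rare in all libraries. It had 7 and 17 counts in WT MECs 1 and 3 and 37 and 25 counts in CebpbΔM MECs 1 and 3. In macrophages it had 47 and 74 counts in WT 4 and 5 and 21, 22, 11 and 10 counts in CebpbΔM 4 to 7. As levels, these were 2.36 and 3.52 CPM in WT macrophages and 0.597 to 1.07 CPM in CebpbΔM macrophages, so the genotypes did not overlap in either cell type, in opposite directions.

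**Figure D2:**
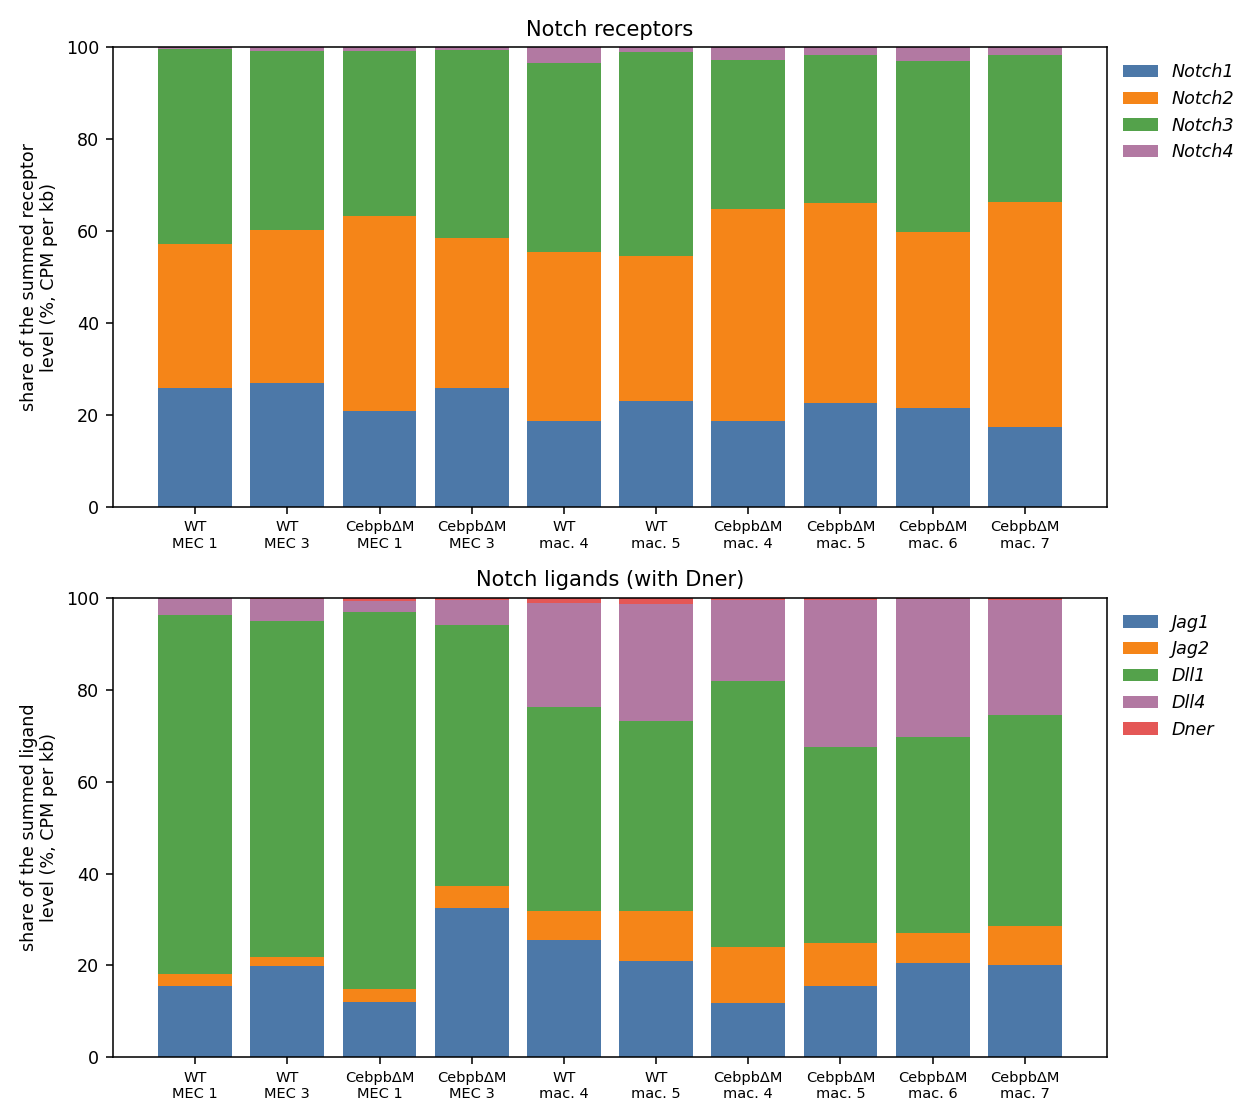
Share of each gene in the summed level of the Notch receptors (top) and ligands with *Dner* (bottom), in percent of CPM per kb, for each of the 10 libraries, with genes stacked in the order of the legend. *Dll1* fills 56.8% to 82.0% of the ligand bars of CebpbΔM MECs and 42.7% to 57.9% of those of CebpbΔM macrophages, and *Dll4* takes a larger part in every macrophage library than in any MEC library.

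Macrophage and MEC libraries were then compared within each genotype with the quasi-likelihood (QL) test of edgeR, its *P*-values adjusted after Benjamini and Hochberg over the 18323 genes tested and a threshold of 0.05. In WT, 6 of the 9 genes were called, all higher in macrophages, whereas of all genes tested 25.5% were called, 14.8% as higher and 10.7% as lower. The median log2 fold change of all 9 genes was 0.99, against 0.06 over all genes tested. *Dll4* rose by 2.47 on the log2 scale (SE 0.37, QL test adjusted *P* = 0.000664) and *Notch4* by 2.57 (SE 0.60, QL test adjusted *P* = 0.00926). *Dner* (2.58, SE 0.73) and *Jag2* (1.82, SE 0.44) were called at an adjusted *P* of 0.0245 and 0.0116. However, *Dner* did not pass the filter on low counts in the MEC libraries alone. It entered this fit through the macrophage libraries, where it was higher, so its call is not independent of the filter. *Notch2* (0.97, SE 0.19) and *Notch3* (0.99, SE 0.29) followed at 0.00326 and 0.0274. *Dll1* was lower in macrophages by a log2 value of -0.95 (SE 0.33), without being called (QL test adjusted *P* = 0.0534). *Notch1* (0.60, QL test adjusted *P* = 0.185) and *Jag1* (0.29, QL test adjusted *P* = 0.566) did not pass the test either.

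In CebpbΔM, 6 of the 9 genes were again called, all higher in macrophages, where 33.7% of all genes tested were called, 18.9% as higher and 14.7% as lower. *Dll4* (log2 fold change 2.66, SE 0.34, QL test adjusted *P* = 0.000174), *Notch2* (1.39, SE 0.17, adjusted *P* = 0.000118) and *Notch4* (2.90, SE 0.57, adjusted *P* = 0.00245) had the smallest *P*. *Notch3* (0.93, adjusted *P* = 0.0165), *Notch1* (0.89, adjusted *P* = 0.0295) and *Jag2* (1.14, adjusted *P* = 0.0423) also passed. *Dner* had a log2 fold change of -0.56 (95% interval -1.86 to 0.74), *Jag1* of -0.45 and *Dll1* of -0.72 (QL test adjusted *P* = 0.0636), and none of these was called. *Notch2*, *Notch3*, *Notch4*, *Jag2* and *Dll4* were thus called in both genotypes. *Dll4* and *Notch2* were the genes called with every single library left out in both genotypes. Without WT macrophage 4, *Notch4* in WT was 1.70 (adjusted *P* = 0.0560), and without WT MEC 1 it was 2.28 (adjusted *P* = 0.0838). *Notch3*, *Jag2* and *Dner* in WT were no longer called without WT macrophage 5, at adjusted *P* of 0.148, 0.0938 and 0.0808, or without WT MEC 3, at 0.158, 0.108 and 0.0582, and *Notch3* and *Dner* without WT MEC 1, at 0.0868 and 0.166. In CebpbΔM, the largest adjusted *P* with a library left out was 0.267 for *Notch1*, 0.176 for *Notch3* and 0.233 for *Jag2*, each without CebpbΔM MEC 1. *Notch1* was also lost without CebpbΔM macrophage 5 (0.0538) or 6 (0.0593), and *Jag2* without CebpbΔM MEC 3 (0.120) or CebpbΔM macrophage 4 (0.0731) or 5 (0.0702). With upper quartile scaling, *Jag2* in CebpbΔM was 1.08 and not called (adjusted *P* = 0.0519). The difference in *Dll1* was called with TMM replaced by relative log expression (RLE) scaling, at an adjusted *P* of 0.0421 in WT and 0.0478 in CebpbΔM. Without CebpbΔM MEC 1, *Jag1* in CebpbΔM was lower in macrophages by -0.89 (adjusted *P* = 0.0492), and without CebpbΔM MEC 3 it was 0.18.

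Cell type, isolation method and experiment cannot be told apart in these contrasts. *Dll4* and *Notch4* are known for their expression in vascular cells, whose markers were also higher in the macrophage libraries. Among these libraries, CebpbΔM 4 had the lowest *Dll4* (31.7 CPM) and the lowest endothelial sum (1194 CPM), and CebpbΔM 6 had the highest of each (56.2 CPM and 2542 CPM). *Notch4* was also highest in CebpbΔM 6, at 10.9 CPM, but was lowest in WT 5, at 3.14 CPM, where the endothelial sum was 1832 CPM. The mural sum likewise was lowest in CebpbΔM 4 (325 CPM), as was *Notch3* within its genotype. However, *Notch3* was highest in WT 5, at 155 CPM, where the mural sum was 558 CPM. In CebpbΔM 5 it was lower, at 91.9 CPM, with a mural sum of 609 CPM. The part of these cells in the results was not tested.

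**Figure D3:**
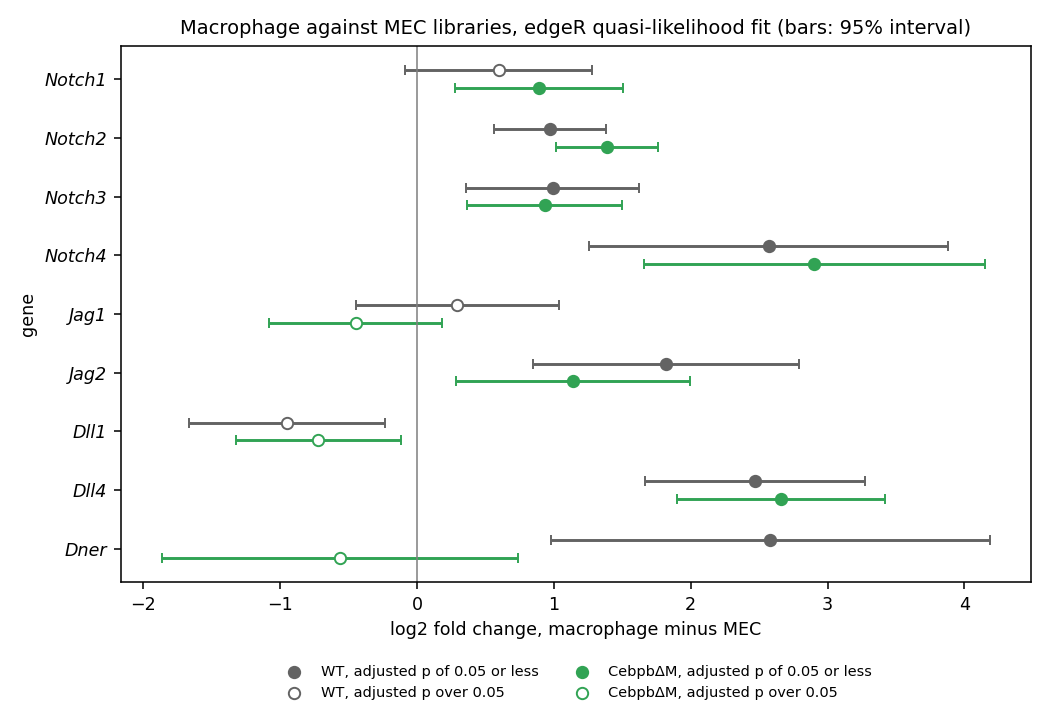
Log2 fold change of each gene, macrophage minus MEC, within WT (gray) and within CebpbΔM (green), with bars for the 95% interval of the QL fit and filled points for an adjusted *P* of 0.05 or less. *Dll4* and *Notch4* lie between 2.47 and 2.90 in both genotypes, and *Dner* is at 2.58 in WT and -0.56 in CebpbΔM.

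The other genes of the pathway were described by a list of 45, of which 43 were tested between the cell types. In WT, 9 were called as higher in macrophages and 2 as lower, together 25.6% of those tested against the 25.5% of all genes. In CebpbΔM it was 9 and 4, or 30.2% against 33.7%, so neither share stood out from that of all genes. *Mfng* had the largest rise. It encodes a glycosyltransferase of the Fringe family, which modifies Notch receptors and alters their response to Jagged and Delta-like ligands. *Mfng* was between 1.10 and 2.51 CPM in MECs and between 33.4 and 53.7 CPM in macrophage libraries, a log2 fold change of 4.67 in WT (SE 0.41, QL test adjusted *P* = 1.6e-05) and 4.61 in CebpbΔM (SE 0.39, QL test adjusted *P* = 8.27e-06). *Lfng*, another Fringe gene, rose by 2.82 in WT and 2.06 in CebpbΔM on the log2 scale. *Neurl1b*, which encodes a ubiquitin ligase for Notch ligands, rose by 3.78 and 3.04, respectively, and *Neurl1a* by 1.57 in WT. *Dlk1*, a noncanonical inhibitory ligand, rose by 3.73 and 2.99 on the log2 scale in a low range of 3.60 to 9.01 CPM in macrophage libraries. Like *Dner*, neither *Neurl1b* nor *Dlk1* passed the filter on low counts in the MEC libraries alone.

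Of the genes for receptor cleavage, *Adam17*, a sheddase, rose by 0.96 in WT and the γ-secretase subunit gene *Psenen* fell by 0.63. In CebpbΔM, the γ-secretase genes *Aph1c* (1.56) and *Aph1b* (1.13) rose, though they are close paralogs whose reads may be shared. Among the genes for receptor turnover, none passed in WT, and in CebpbΔM *Itch* rose by 0.89 while *Numbl* (-0.84) and *Dtx3* (-0.65) fell. *Rbpj* itself was higher in macrophages, by 0.80 in WT (SE 0.26, QL test adjusted *P* = 0.0408) and 1.45 in CebpbΔM (SE 0.24, QL test adjusted *P* = 0.000752). Of the target genes, *Hey1* rose by 1.08 in WT (adjusted *P* = 0.0459), and *Hes1* was lower in CebpbΔM macrophages than in CebpbΔM MECs by -2.04 (QL test adjusted *P* = 0.00221).

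The libraries labeled CebpbΔM were then compared with WT in macrophages, which the study sequenced to look for macrophage genes that depend on C/EBPβ. None of the 17772 genes tested was called by the QL test in the 6 macrophage libraries, which is a background of 0%, and none of the 9 Notch genes was called. At an unadjusted *P* under 0.05 the test gave 1534 genes, or 8.63%, and 3 of the 9. The genotypes did not overlap for the same 3 genes, and for 18.5% of all genes. *Dner* had the largest difference, -1.83 on the log2 scale (SE 0.59, 95% interval -3.19 to -0.47, QL test adjusted *P* = 0.517), and was lower in 4 of 4 CebpbΔM libraries than in both WT libraries. *Jag1* was lower in the same way, at -0.57 (SE 0.23, 95% interval -1.10 to -0.03, QL test adjusted *P* = 0.556). *Notch2* was higher in 4 of 4 libraries, at 0.40 (SE 0.17, 95% interval 0.01 to 0.80, QL test adjusted *P* = 0.575). For *Notch3* the log2 fold change was -0.34 (95% interval -0.89 to 0.21, QL test adjusted *P* = 0.743), and its values overlapped through CebpbΔM 6. *Notch1* (-0.07), *Notch4* (0.22), *Jag2* (-0.09), *Dll1* (0.03) and *Dll4* (-0.01) overlapped, with the narrowest interval, -0.48 to 0.54, for *Dll1*. The median over the 9 genes was -0.07, against 0.00 over all genes.

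The likelihood ratio test that the study names, as run here, called 138 genes and DESeq2 called 201, and neither called a Notch gene. The study itself lists *Dner* and *Rbpjl* among the genes lowered in CebpbΔM macrophages. It cautions that macrophages or engulfed epithelial cells could be the source of such transcripts. Why its call of *Dner* differs from the result here was not tested. Over all settings tried, the adjusted *P* of *Dner* was between 0.183 and 0.797, that of *Jag1* between 0.311 and 0.815, and that of *Notch2* between 0.373 and 0.828, and the direction of each was kept in all 19.

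The cell type markers also differed between the macrophage genotypes. The summed macrophage markers were 8609 and 9959 CPM in the WT libraries and 11383, 13611, 15687 and 17015 CPM in CebpbΔM 4 to 7. The sum of the 12 luminal markers went the other way, at 11097 and 11224 CPM in WT and 7184, 5865, 6223 and 8025 CPM in CebpbΔM. Single genes of this list need not follow the sum. The study names *Csn2*, which is on the list, as enriched in CebpbΔM macrophages. The 6 dendritic cell markers were 171 and 262 CPM in WT and 290, 401, 442 and 582 CPM in CebpbΔM 4 to 7. The macrophage and the dendritic sums each put the 6 libraries in the same order as *Notch2* did. The basal markers summed to 1431 and 993 CPM in WT and 3472, 2312, 2305 and 905 CPM in CebpbΔM 4 to 7. So 3 of these 4 libraries lay above WT, opposite to the luminal sum. With the mean level of the luminal and basal markers together as a covariate, the log2 fold change was -2.04 for *Dner*, -0.48 for *Jag1* and 0.48 for *Notch2*, with adjusted *P* of 0.431, 0.557 and 0.373 in the QL test. Without CebpbΔM macrophage 4, the library richest in basal markers, it was -1.97 for *Dner*, -0.46 for *Jag1* and 0.45 for *Notch2*. The part of macrophage and dendritic cell content in these results was not tested.

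**Figure D4:**
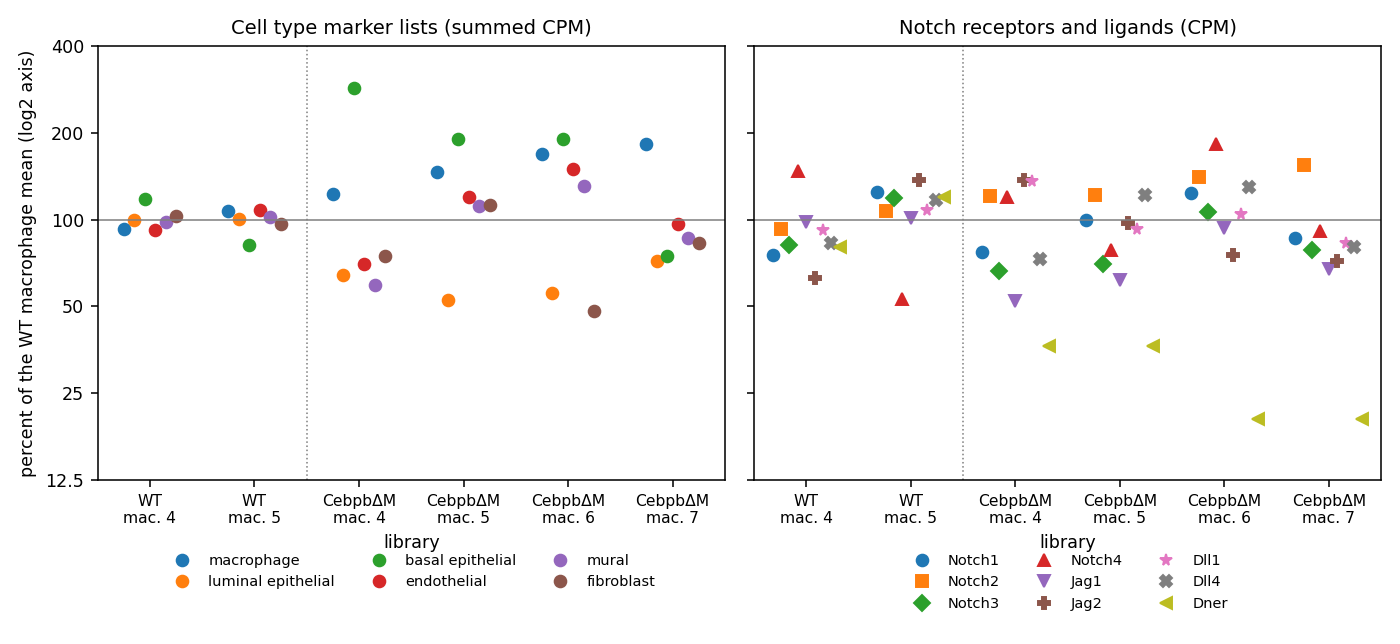
Summed level of cell type marker lists (left) and level of each Notch gene (right) in the 6 macrophage libraries, as percent of the mean of the WT macrophage libraries on a log2 axis, with WT left and CebpbΔM right of the dotted line. The macrophage markers lie between 123% and 183% and the luminal markers between 52.5% and 71.9% in CebpbΔM libraries, where *Notch2* is above and *Jag1* and *Dner* are below the line at 100%.

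Of the 45 other pathway genes, 43 were tested in macrophages, none was called, and 4 had an unadjusted *P* under 0.05, or 9.3%, near the 8.63% of all genes. The 3 with the smallest *P* were *Rbpjl*, *Adam10* and *Rbpj*, with adjusted *P* of 0.452, 0.488 and 0.512 in the QL test. *Rbpjl*, a relative of *Rbpj*, was 9.28 and 7.38 CPM in WT and 1.17, 2.09, 3.31 and 3.0 CPM in CebpbΔM (log2 fold change -1.82, SE 0.45). *Adam10*, the protease of the first ligand-induced cut of Notch receptors, was 321 and 306 CPM in WT and 184 to 241 CPM in CebpbΔM (-0.57, SE 0.16). *Rbpj* was 23.7 and 30.8 CPM in WT and 38.2, 39.6, 46.4 and 48.1 CPM in CebpbΔM (0.63, SE 0.20), with no overlap, as for the other genes named.

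In MECs, *Cebpb* was not targeted, and the comparison asks whether loss of the factor from macrophages moved Notch genes in the epithelium. Of the 15698 genes tested, 8 were called, or 0.051%, and none was a Notch gene. *Dner* was not tested because it was above 1 CPM in only 1 MEC library. Of the 8 genes tested, 2 had genotypes that did not overlap, as did 28.2% of all genes, and none had an unadjusted *P* under 0.05, as 5.42% of all genes did. *Jag2* was higher in CebpbΔM MECs by 0.64 on the log2 scale (SE 0.32, 95% interval -0.07 to 1.35), with 11.4 and 13.7 CPM against 10.5 and 5.93 CPM. *Notch1* was lower by -0.32 (95% interval -0.88 to 0.24), where CebpbΔM MEC 3, at 73.2 CPM, was close to the WT libraries. *Notch2* had the smallest difference, 0.03, with a 95% interval of -0.41 to 0.47. *Notch3* (-0.23), *Notch4* (-0.07), *Jag1* (0.23), *Dll1* (-0.16) and *Dll4* (-0.14) overlapped. The CebpbΔM MEC libraries differed from each other in several of these genes: *Jag1* was 37.8 CPM in replicate 1 and 79.2 CPM in replicate 3, and *Dll1* was 188 CPM and 99.9 CPM. Fitted without the filter on low counts, *Dner* had a log2 fold change of 1.35 (QL test adjusted *P* = 1.0).

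Of the other pathway genes, 40 were tested in MECs and none was called. The 3 with the smallest *P* were *Rfng*, *Hes1* and *Lfng*. *Rfng*, the third Fringe gene, was 11.8 and 15.1 CPM in WT and 45.0 and 28.0 CPM in CebpbΔM, or 1.45 on the log2 scale (SE 0.28, QL test adjusted *P* = 0.112). *Hes1* was 19.9 and 30.1 CPM in WT and 98.8 and 39.9 CPM in CebpbΔM (1.48, SE 0.37, adjusted *P* = 0.235). *Lfng* was 0.59 with an adjusted *P* of 1.0. *Rbpj* had a log2 fold change of 0.03 (SE 0.29).

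An interaction term in the fit of all 10 libraries asked whether the effect of the genotype differed by cell type. None of the 18323 genes was called, a background of 0%, and 951 (5.19%) had an unadjusted *P* under 0.05. *Dner* was the only one of the 9 genes below this level, with a difference of -3.14 on the log2 scale, macrophage minus MEC (SE 0.92, 95% interval -5.17 to -1.11, QL test adjusted *P* = 0.862). It entered this fit, too, through the macrophage libraries. The next were *Notch2* at 0.42 (95% interval -0.12 to 0.96) and *Jag1* at -0.74 (95% interval -1.72 to 0.23). The estimates of the remaining 6 genes lay between -0.68 for *Jag2* and 0.33 for *Notch4*.

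**Figure D5:**
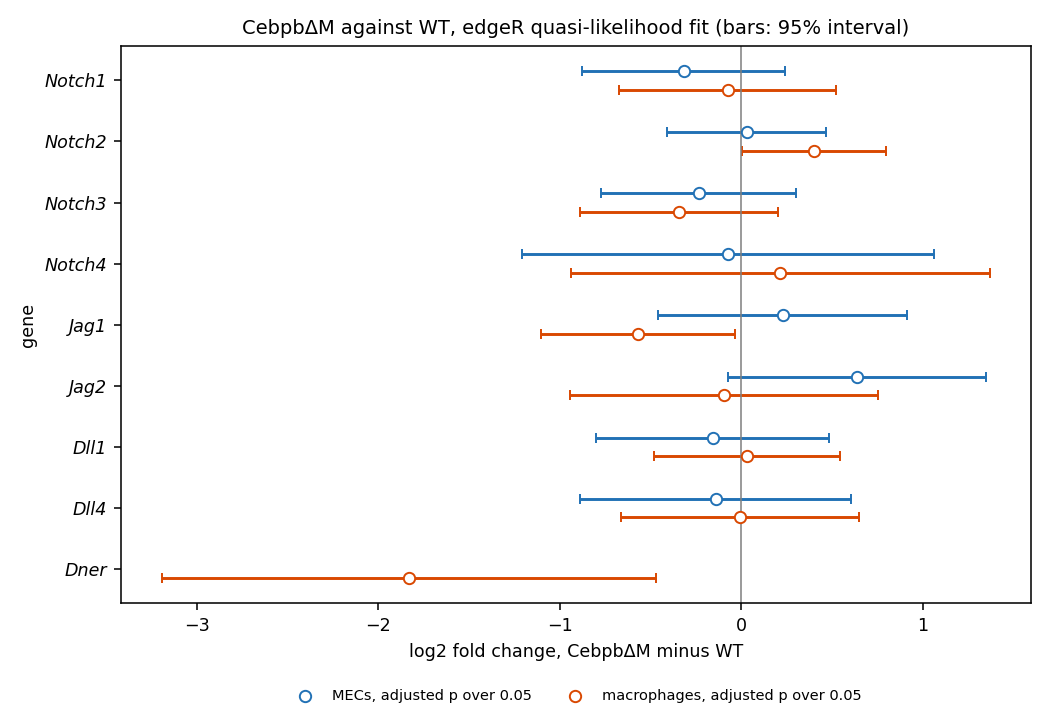
Log2 fold change of each gene, CebpbΔM minus WT, in MECs (blue) and in macrophages (orange), with bars for the 95% interval of the QL fit and open points for an adjusted *P* over 0.05, which was the case for every gene. *Dner*, tested in macrophages only, is at -1.83, and the intervals of *Jag1* and *Notch2* in macrophages end at -0.03 and 0.01 beside the line at 0.

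The 4 group means of each gene gave an order of levels. For *Notch2* it ran from WT MECs (69.6 ± 0.374 CPM, n = 2) and CebpbΔM MECs (70.0 ± 0.860 CPM, n = 2), which did not differ beyond their spread, to WT macrophages (136 ± 14.4 CPM, n = 2) and CebpbΔM macrophages (183 ± 21.9 CPM, SD, n = 4). *Dll4* had 2 levels, 6.95 ± 2.64 and 7.80 ± 0.235 CPM in CebpbΔM and WT MECs and 43.3 ± 10.6 and 43.9 ± 12.4 CPM in WT and CebpbΔM macrophages, and within each pair the values overlapped. *Dner* ran from 0.487 ± 0.288 CPM in WT MECs over 0.835 ± 0.272 CPM in CebpbΔM macrophages and 1.24 ± 0.377 CPM in CebpbΔM MECs to 2.94 ± 0.824 CPM in WT macrophages. *Jag1* was lowest in CebpbΔM macrophages (42.8 ± 10.9 CPM) and highest in WT macrophages (62.3 ± 1.46 CPM), with both MEC means between them.

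The genes with the most similar pattern over the 10 libraries were found by the root mean square difference of centered log2 CPM among the genes of the 18323 tested. The closest to *Notch1* was *Zfp638* (0.105), that to *Notch2* was *Rilpl2* (0.104), and that to *Notch3* was *Wdfy3* (0.105). For *Notch2* the next were *Hmox2* (0.117) and *Pycard* (0.123), and for *Notch3* they were *Cpd* (0.138) and *Mknk2* (0.139), and for *Notch1* they were *Uaca* (0.121) and *E530011L22Rik* (0.124). *Notch4* was nearest to *Stum* (0.319), *B930059L03Rik* (0.339) and *Tnni2* (0.367), at a greater distance. Of the ligands, *Jag1* was nearest to *Igf2r* (0.153), *Impad1* (0.160) and *Gm37906* (0.160), *Jag2* to *Chst1* (0.296), *Epn1* (0.313) and *Pcsk6* (0.315), and *Dll1* to *Rnf122* (0.156), *Adi1* (0.165) and *Fam234b* (0.168). *Dll4* was nearest to *Gm5809* (0.126), *Nup210l* (0.194) and *Cep170* (0.211). *Dner*, whose counts were lowest, had the least similar neighbors, *Ap3s1-ps2* (0.478), *Gins1* (0.535) and *Tmem201* (0.536).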

How the data were processed

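RNA of MECs and F4/80-selected macrophages was sequenced by the authors as paired-end low-input libraries. Reads were trimmed in Trimmomatic (version 0.33) and aligned in HISAT2 (version 2.1.0) to GRCm38, and featureCounts (version 1.6.2) counted pairs of mapping quality 10 or more on Ensembl release 100 with strand set to reverse. The deposited tables give raw counts per gene. A second replicate of each MEC genotype, named in a file header, was not analysed here.

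Each fit kept genes of 300 nt or more with over 1 CPM in 2 or more of its libraries. TMM scaling and the QL test came from edgeR (version 4.0.16, R version 4.3.3), and Benjamini–Hochberg adjusted *P* of 0.05 or less was called. MECs and macrophages were fitted apart for genotype, and all 10 libraries together for cell type and the interaction. The study names edgeR's likelihood ratio test, an alternative here, as were DESeq2 (version 1.42.0), RLE and upper quartile scaling, other filters, thinned counts, a block for the replicate number, an epithelial covariate and each library left out. A standard error is the log2 fold change over the square root of its F value. Log2 CPM used a prior count of 2. The QL test was tested on simulated data with 200 changed genes. In each comparison simulated, it missed more of the 2-fold changes than it recovered, and it recovered most but not all of the 4-fold changes. A gene that was not called may therefore still differ. Figures were drawn with matplotlib (version 3.10.9).

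In 55 genes lying at 90% or more within exons of the opposite strand, the median read density was 1.74 times that of the other gene, so counts of overlapping genes were not taken as strand-specific. The labels do not say whether each library is 1 animal, so *P*-values measure the spread between these libraries, which may be technical. The 9 genes were taken by name. Other pathway genes were named where called (at most 5 a genotype comparison, 2 in each direction and list between cell types), else the 3 with the smallest *P*, and *Rbpj* always. A pathway gene that this rule names is not reported here. For each of the 9, the 3 most similar genes were named. The genes, lists and marker lists were chosen with earlier results of these data known.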

Additional observations from a re-analysis of the deposited data

Results flagged for a closer look

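The share of *Notch3* in the receptor level stood apart in 1 of the 4 CebpbΔM macrophage libraries. It was 37.2% in CebpbΔM 6 and 31.9% at the lowest, and the gap to the nearest library was 0.903 of the range. Of 18 such checks over levels and shares this was the 1 past its limit, and chance flags about 1 in 20. CebpbΔM 6 also had the highest endothelial and mural sums of the macrophage libraries, 2542 and 716 CPM, and their part was not tested.

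*Dner* was lower in every CebpbΔM macrophage library than in both WT libraries and higher in both CebpbΔM MEC libraries than in both WT MEC libraries. The difference of the effects was -3.14 on the log2 scale, and it failed the correction (QL test adjusted *P* = 0.862). It rests on 7 to 37 counts in the MEC libraries and 10 to 74 in the macrophage libraries. In the MEC libraries alone, *Dner* did not pass the filter on low counts.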

How the results depend on the processing

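Of the values of single Notch genes under other settings, 710 of 793 kept their direction and their side of the threshold. In neither genotype comparison, nor in the interaction, was any of the 9 genes called under any setting. In MECs, the count of called genes over all genes was 179 with the likelihood ratio test, 233 with its trended dispersions (chosen after seeing the data), 161 with DESeq2, 38 with no filter, 4 with upper quartile scaling, 0 in a fit of all 10 libraries and 0 at 0.01. In macrophages it was 138, 273 and 201 with the first 3 of these, and for the interaction it was 53 with the likelihood ratio test and 27 with DESeq2. Between cell types, the threshold of 0.01 left 2527 genes and 3 Notch genes in WT, and 3840 and 3 in CebpbΔM. With a library left out, the count was 2 to 337 in MECs (98 without WT 1, 2 without WT 3, 42 without CebpbΔM 1, 337 without CebpbΔM 3) and 0 to 1 for the interaction (1 without WT MEC 3). It was 2456 to 4846 for cell type in WT with 3 to 7 Notch genes (2733 without WT MEC 1, 2456 without WT MEC 3 and 3041 without WT macrophage 5, each with 3 Notch genes) and 3496 to 6556 in CebpbΔM (3496 without CebpbΔM MEC 1). The lower *Dll1* in macrophages was called with 5 of these other settings in WT and 4 in CebpbΔM, and without CebpbΔM macrophage 4 in both genotypes, CebpbΔM MEC 1 in WT or CebpbΔM MEC 3 in both (adjusted *P* of 0.0183 to 0.0465).

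With the replicate number as a block, 205 genes were called in MECs, 12 in macrophages and 1 for the interaction. Same-numbered libraries deviated together with a correlation of 0.105 in MECs, 0.127 in macrophages 4 and -0.086 in macrophages 5, so the numbers were not taken to pair the samples, and there are fewer than 3 pairs. *Jag2* in macrophages was 0.29 with the block.

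The sign turned under other settings for several differences, none of which was called in the QL test with every library. In MECs *Notch2* was -0.0013 with thinned counts. In macrophages *Dll4* was 0.0096 with upper quartile scaling, 0.0021 with no filter, 0.0072 with thinned counts, 0.020 in the fit of all 10 libraries and 0.061 with the epithelial covariate, under which *Notch1* was 0.022 and *Dll1* -0.12. With replicates 4 and 5 alone, *Notch4* was -0.021 and *Jag2* 0.22. With a library left out in MECs, *Notch1* ranged from -0.74 to 0.0097, *Notch2* from -0.0097 to 0.067, *Notch3* from -0.58 to 0.046, *Notch4* from -0.37 to 0.066, *Jag1* from -0.43 to 0.68, *Dll1* from -0.65 to 0.21 and *Dll4* from -0.63 to 0.22. In macrophages, *Notch1* ranged from -0.39 to 0.34, *Notch4* from -0.34 to 1.13, *Jag2* from -0.55 to 0.58, *Dll1* from -0.13 to 0.15 and *Dll4* from -0.24 to 0.27. For the interaction, *Notch1* ranged from -0.059 to 0.69, *Notch3* from -0.34 to 0.26, *Notch4* from -0.26 to 1.22, *Dll1* from -0.16 to 0.76 and *Dll4* from -0.16 to 0.64. *Jag1* and *Jag2* kept their sign in the interaction but ranged from -1.18 to -0.11 and from -1.17 to -0.042, as did *Jag2* in MECs, from 0.31 to 1.09. *Jag1* between cell types in CebpbΔM ranged from -0.89 to 0.18. The causes were not tested. Of 36 shares, 19 moved by more than an SD with read counts and 13 with the longest coding transcript. With a library left out, the *Notch2* to *Notch3* ratio difference was between 0.602 and 0.858 in macrophages and between 0.011 and 0.509 in MECs. Low counts limit *Dner*.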
